A study of Ciona savignyi with 56 samples.

Results

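A set of 17 transcripts of the ascidian Ciona savignyi was followed from the fertilised egg to the 110-cell embryo. They were chosen because their read counts were much lower at the 8-cell than at the 1-cell stage: each had at least 30 CPM (counts for every 1000000 counts of the stage) in the pooled zygotes, and its 8-cell CPM plus 2 was at least 6-fold below its 1-cell CPM plus 2. Of 12172 genes in the matrix, 4263 reached 30 CPM at the 1-cell stage once a run of 42 genes with neighbouring identifiers had been left out, and 17 of these met the rule. No gene of that run would have met it (0 of 42). The fall between the 1-cell and the 8-cell stage is therefore how the transcripts were picked and not a finding. The set was drawn up as zygote transcripts cleared by the 8-cell stage. Levels at other stages go against that name as far as reads and UMIs can be compared. The transcripts were low at the 8-, 16- and 32-cell stages, which are in reads as the zygotes are. In 64- and 110-cell embryos, in UMIs, their median ratio to the zygote was 0.408 and 0.551. Over the 4263 genes it was 1.15 and 1.12. At the 2-cell stage, also in UMIs, 3 of 17 were as high as in the zygote, where 2755 of 4263 genes were. Kind of count and stage cannot be told apart in these ratios. They are called here the 17 low-at-8-cell transcripts. The files do not pair identifiers with gene names, so no function is given for any of them.

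An animal egg carries a store of RNA made by the mother, and the first divisions run on that store. Maternal RNAs are removed by decay in steps while transcription of the embryo's own genome starts, which is called the maternal-to-zygotic transition. In ascidians the cleavages follow a fixed lineage, so that a blastomere can be named and its RNA compared between embryos.

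Polyadenylated RNA was measured in single blastomeres with a Smart-seq2 type protocol and barcoded primers. The animals were collected from the wild, the fertilised eggs were freed of their chorions, and each embryo was taken apart with trypsin and its cells were picked one by one. The untreated groups were 8 zygotes, 5 2-cell, 3 4-cell, 3 8-cell, 2 16-cell, 2 32-cell, 3 64-cell and 3 110-cell embryos. A further 2 embryos reached the 64-cell stage in sea water with U0126, an inhibitor of the kinase MEK, at 2 µg/ml. Amplification took 12 PCR cycles for zygotes and 2-cell embryos, 13 for 4-cell, 14 for 8-cell, 15 for 16-cell, 16 for 32-cell and 17 for 64-cell embryos, with or without U0126, and 110-cell embryos. Cycle number and stage cannot be told apart in a comparison of stages whose cycle numbers differ, while 110- and 64-cell embryos, and 2-cell embryos and zygotes, had equal numbers. The labels name no parents, no strain and no age. Embryos are numbered within a stage by the authors' embryo identifiers, and the numbers have no order.

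Counts were summed over the cells of each embryo, and the embryo was the replicate. Zygotes held 169789 to 465522 reads each, 2-cell embryos 91754 to 214900 UMIs (tags that mark the copies of 1 molecule) and 4-cell embryos 327876 to 384149 UMIs. From the 8-cell stage on, every embryo held 2030096 counts or more. The matrix gives reads at the 1-, 8-, 16- and 32-cell stages and in U0126-treated embryos, and UMIs at the 2-, 4-, 64- and 110-cell stages. A level in reads and a level in UMIs are set side by side below without a test, because kind of count and stage cannot be told apart there. All zygotes came from 1 library, all 2- and 4-cell embryos from another, and the 8-cell embryos from 2, and each of the 48 cell barcodes was used in more than 1 library. A CPM is a share of the counted RNA, so a lower level and a larger remainder cannot be told apart either. A count of 0 in an embryo is set against a floor of 3 counts, which covers counting error only. That floor is 6.44 to 17.7 CPM in zygotes and 14.0 to 32.7 CPM in 2-cell embryos. It is at most 1.48 CPM in embryos of 8 cells or more. In groups in reads 1 molecule can give several reads, with a median of 2.56 reads a UMI in zygotes, 3.14 in 8-cell and 4.57 in 32-cell embryos. A count of 0 there can allow more than the floor.

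Among the 4263 genes, the ratio of 8-cell to 1-cell levels (each CPM plus 2) had a median of 1.04, and the 5th and 95th percentiles were 0.518 and 2.10. A ratio of at most 0.5 was found for 188 genes and one of at most 0.25 for 25 genes. In the other direction 11 genes were at least 4-fold higher at the 8-cell stage and 0 were at least 6-fold higher. Just inside the 6-fold line lay ENSCSAVG00000001791 with 8.03 CPM in pooled 8-cell embryos and 72.1 CPM in pooled zygotes. Just outside it lay ENSCSAVG00000009475 with 7.34 CPM in pooled 8-cell embryos and 47.9 CPM in pooled zygotes. The line at 30 CPM separated ENSCSAVG00000011973, at 31.8 CPM in pooled zygotes, from ENSCSAVG00000011942, at 28.8 CPM, and both were near 0 at the 8-cell stage. The histogram of these ratios shows a gap between the 17 transcripts and the next genes that is narrow compared with the width of the whole distribution.

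**Figure D1:**
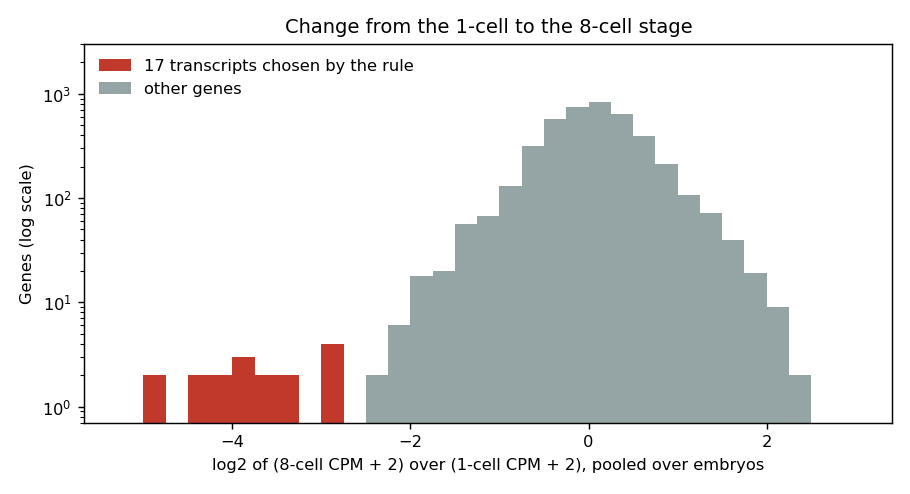
Number of genes (y axis, log scale) by log2 of the 8-cell level over the 1-cell level (x axis, CPM + 2, pooled over embryos) for the 4263 genes with at least 30 CPM at the 1-cell stage. The 17 chosen transcripts (red) form the left tail by construction, and the other genes (grey) centre near a ratio of 1.04.

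The 4 transcripts with the highest pooled 1-cell CPM were ENSCSAVG00000002885, ENSCSAVG00000010500, ENSCSAVG00000011749 and ENSCSAVG00000009472. ENSCSAVG00000002885 had 19.6, 10.6 and 7.39 CPM in the 3 8-cell embryos, against 10.1 CPM in the lowest zygote, a median of 292 CPM and 432 CPM in the highest. Here the groups overlapped, because zygote 8 stood at 10.1 CPM and the other zygotes at 267 CPM or more. For ENSCSAVG00000010500 the 8-cell embryos had 23.5, 26.9 and 34.0 CPM, against 94.0, 308 and 397 CPM in the lowest, median and highest zygote. ENSCSAVG00000011749 had 29.3, 4.93 and 26.6 CPM in 8-cell embryos and a range of 111 to 214 CPM, with a median of 164 CPM, in zygotes. The next, ENSCSAVG00000009472, had 2.74, 4.55 and 7.39 CPM in 8-cell embryos, against 35.5, 77.3 and 151 CPM in the lowest, median and highest zygote. In these last 3 transcripts all zygotes lay above all 8-cell embryos.

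Counts of 0 at the 8-cell stage were found for 4 of the 17. ENSCSAVG00000011645, ENSCSAVG00000008275, ENSCSAVG00000005583 and ENSCSAVG00000011973 had no read in any of the 24 cells, which allows up to 0.415 CPM in the pooled 8-cell embryos. Their pooled 1-cell levels were 57.9, 54.4, 39.1 and 31.8 CPM in that order. ENSCSAVG00000011546 had 1 read in the 24 cells (0.138 CPM pooled) and 36.8 CPM in pooled zygotes. The remaining 8 transcripts had pooled 8-cell levels of 0.692 to 8.03 CPM and pooled 1-cell levels of 36.8 to 72.1 CPM. In all, 8 of 17 transcripts had every zygote above every 8-cell embryo, where 8.35% of the 4263 genes did, and nothing is read from this count because the rule used the same contrast.

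The 8 zygotes did not agree. At least 1 zygote had no read for 8 of the 17 transcripts, against 28 of the 4263 genes (0.657%). The coefficient of variation over zygotes had a median of 0.785 among the 17, with a range of 0.243 to 2.68, and a median of 0.251 over the 4263 genes. Since the rule asks for a high pooled level in the same zygotes, these values describe the chosen set and were not tested. The heatmap of all embryos shows the zygote columns falling into unlike patterns.

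**Figure D2:**
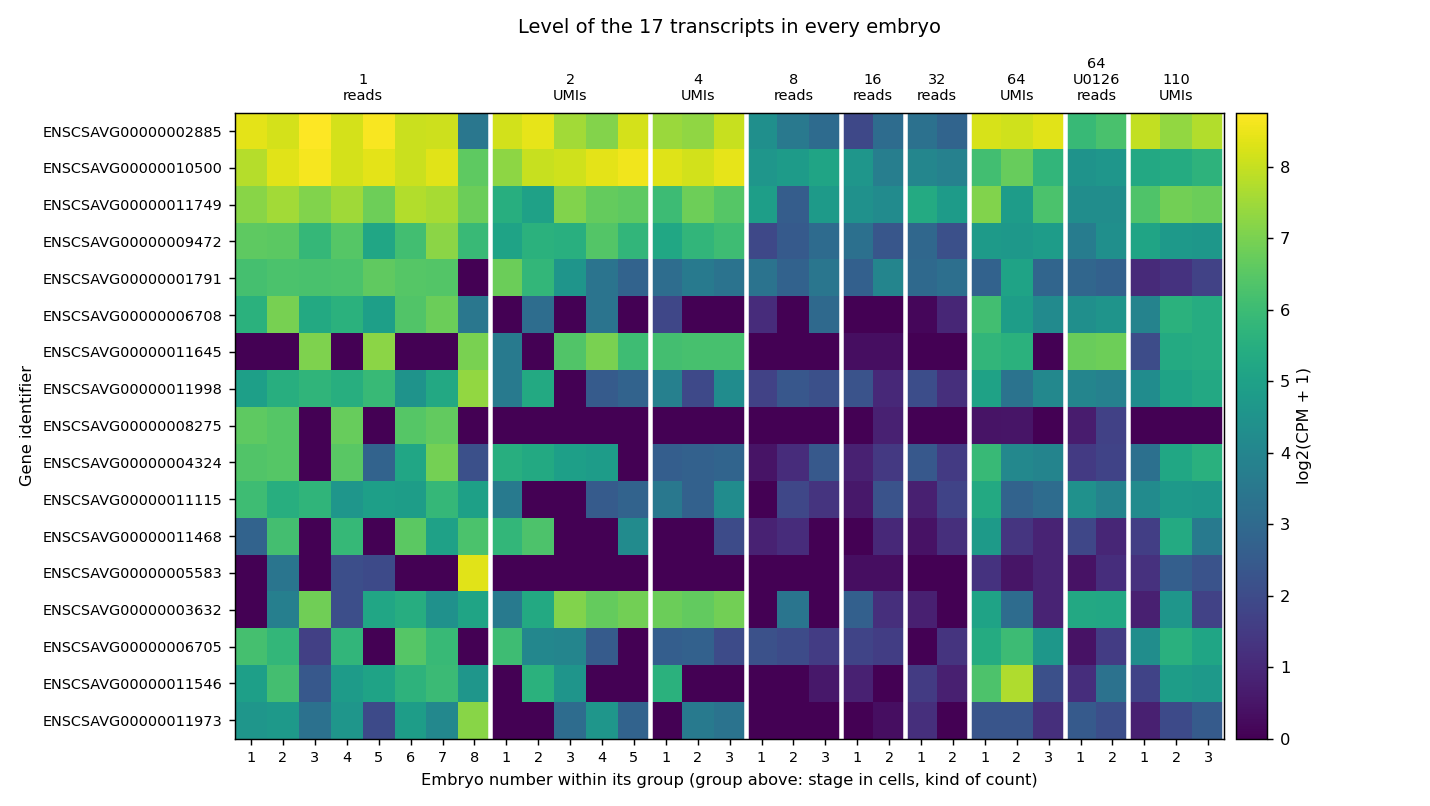
Colour gives log2(CPM + 1) of each of the 17 transcripts (rows) in each of the 31 embryos (columns), with white lines between groups and the stage in cells and the kind of count above. The dark block at the 8-, 16- and 32-cell stages holds summed levels of 68.3 to 104 CPM an embryo, zygote 8 differs from the other zygotes in several rows, and colours are to be compared along a row, since transcript lengths are unknown.

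Variation between zygotes was largest for ENSCSAVG00000005583 and ENSCSAVG00000011645. ENSCSAVG00000005583 had 326 CPM in zygote 8 and 0 to 9.53 CPM in the other zygotes, so 1 zygote placed it in the set. ENSCSAVG00000011645 had 133, 151 and 128 CPM in zygotes 3, 5 and 8 and no read in zygotes 1, 2, 4, 6 and 7. ENSCSAVG00000008275 showed the reverse, with 94.2, 85.8, 104, 85.4 and 99.4 CPM in zygotes 1, 2, 4, 6 and 7 and no read in zygotes 3, 5 and 8. No zygote had a read of both. The floor of 3 reads is 17.7 CPM or less in each zygote, and a count of 0 can allow more.

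Zygote 8 also held the lowest or highest level for others of the set. It had no read of ENSCSAVG00000001791, which the other zygotes had at 70.7 to 97.5 CPM. For ENSCSAVG00000011973 it had 148 CPM, against 2.96 to 28.5 CPM in the others. For ENSCSAVG00000011998 it had 161 CPM, against 21.4 to 59.1 CPM. It was the lowest zygote, or tied for it, for 7 of the 17 and the highest for 3, while its total of 297948 reads lay within the range of the others. Zygotes 3 and 5 were lowest or tied for 5 each, and zygotes 3 and 6 were also highest for 3 each. This order was not counted over all genes and is not read as a trait of the set. Without zygote 8 the rule returned 15 transcripts, with ENSCSAVG00000005583 and ENSCSAVG00000011973 no longer meeting it.

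Other transcripts had no read in some zygotes. ENSCSAVG00000004324 ranged from 0 CPM in zygote 3 to 122 CPM in zygote 7, with a median of 59.0 CPM. ENSCSAVG00000006705 had no read in zygotes 5 and 8 and up to 85.4 CPM in zygote 6, and ENSCSAVG00000011468 had none in zygotes 3 and 5 and up to 92.6 CPM in zygote 6. ENSCSAVG00000003632 ranged from 0 CPM in zygote 1 to 114 CPM in zygote 3, with a median of 26.9 CPM, and the floor of 3 reads is 17.7 CPM in zygote 1. The zygotes with no read of one of these transcripts were not always the same. The steadiest were ENSCSAVG00000011749 and ENSCSAVG00000010500, with coefficients of variation of 0.243 and 0.329.

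Over the 17 transcripts, on the log2(CPM + 2) scale, the correlation between 2 zygotes ranged from -0.46 to 0.96 over the 28 pairs. Over the 4263 genes it ranged from 0.79 to 0.94 for the same pairs. Zygotes 2 and 4 were most alike over the 17 (r = 0.96), zygotes 3 and 5 had r = 0.92, zygotes 2 and 3 had r = 0.16, and zygotes 7 and 8 had r = -0.46. These coefficients are a description over points of 1 library and carry no test. Depth differed between the zygotes by less than 3-fold, and the deepest, zygotes 3 and 7, had 4 and 2 of the 17 at 0.

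At the 2-cell stage 4 of the 17 transcripts were at least 6-fold below the zygote level (pooled CPM plus 2), where 0.305% of the 4263 genes were. The same count at the 4-cell stage was 6 of 17, with a background of 0.61%. Both counts use the zygote levels that the rule used, so an excess over the background is partly built in, and they carry no test. ENSCSAVG00000005583, among the 4 at the 2-cell stage, had 326 CPM in zygote 8 and a median of 1.48 CPM over the zygotes. Reads are set against UMIs here, and the median ratio to the zygote was 0.448 among the 17 at the 2-cell stage and 1.20 over all 4263 genes. The transcripts with the highest ratio were ENSCSAVG00000003632 and ENSCSAVG00000011645, and those with the lowest were ENSCSAVG00000008275 and ENSCSAVG00000005583.

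ENSCSAVG00000003632 had a median of 26.9 CPM in zygotes, 10.9, 39.03, 135, 102 and 118 CPM in 2-cell embryos 1 to 5 and 109, 100 and 119 CPM in the 4-cell embryos. ENSCSAVG00000011645 had 70.3, 72.4 and 73.2 CPM in the 4-cell embryos and 10.9, 0, 82.5, 125.6 and 64.8 CPM in 2-cell embryos 1 to 5. For both, 2-cell embryos 1 and 2 were the low ones, and the 4-cell embryos stood close together. ENSCSAVG00000008275 and ENSCSAVG00000005583 had no UMI in any of the 5 2-cell and 3 4-cell embryos, which allows up to 4.07 CPM in the pooled 2-cell and 2.80 CPM in the pooled 4-cell embryos.

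For ENSCSAVG00000011645 the 2 blastomeres of a 2-cell embryo had similar counts. Its UMIs were 0 and 1 in embryo 1, 0 and 0 in embryo 2, 7 and 4 in embryo 3, 12 and 15 in embryo 4, and 6 and 5 in embryo 5. ENSCSAVG00000001791 ran the other way across the same embryos, with 109, 54.6, 22.5, 9.31 and 5.89 CPM in embryos 1 to 5. The lower of these values rest on 1 to 3 UMIs, and a count of 0 allows up to 32.7 CPM in the 2-cell embryo with the fewest UMIs. ENSCSAVG00000010500 varied less, with 320, 287 and 342 CPM in 4-cell embryos and 153, 258, 278, 335 and 383 CPM in 2-cell embryos.

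4-cell embryos were tested against 2-cell embryos, both in UMIs, with edgeR's quasi-likelihood test, and p-values were adjusted by Benjamini-Hochberg over every gene tested. None of the 16 tested transcripts was called (0 of 16), where 0.171% of 6441 genes were, 0.155% higher and 0.0155% lower, and ENSCSAVG00000005583 did not pass the filter on low counts. In this and the other stage tests the filter also saw the zygotes, so a transcript could pass it where the rule made it high. The spread of each gene was estimated over all embryos of the fit, so the SEs and p-values also carry the spread between zygotes. ENSCSAVG00000008275 had no UMI in either stage and could not be called. A fit of the stages in UMIs only tested 13 transcripts and called 0, where 0.0357% of 5598 genes were called. At an unadjusted p under 0.05 there was 1 of 16, ENSCSAVG00000011468, where 9.07% of all genes tested had one, and DESeq2 called 0, where it called 0.730% of all. That transcript had 0, 0 and 3.05 CPM in 4-cell embryos and 54.5, 78.1, 0, 0 and 17.7 CPM in 2-cell embryos, a log2 fold change of -4.70 with an SE of 2.17 and an adjusted p of 0.523 by edgeR. The 4-cell embryos lay within the range of the 2-cell embryos. The median log2 fold change was -0.02 over the 14 transcripts with more than 3 counts in either stage and 0.02 over all genes.

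At the 8-, 16- and 32-cell stages the summed level of the 17 stayed in a narrow band. It averaged 1431 ± 144 CPM in zygotes (SD, n = 8), 961 ± 80.5 CPM in 2-cell (n = 5), 899 ± 97.5 CPM in 4-cell (n = 3) and 90.2 ± 14.9 CPM in 8-cell embryos (n = 3). It was 71.7 ± 3.68 CPM in 16-cell (n = 2), 78.8 ± 14.9 CPM in 32-cell (n = 2), 805 ± 201 CPM in 64-cell (n = 3) and 612 ± 106 CPM in 110-cell embryos (n = 3). Embryos with U0126 averaged 345 ± 23.9 CPM (n = 2). The 3 lowest stages are all in reads, as are the zygotes and the U0126-treated embryos, and the other stages are in UMIs. ENSCSAVG00000002885 and ENSCSAVG00000010500 made up 49.6% of the sum in 64-cell embryos and 39.3% in zygotes.

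**Figure D3:**
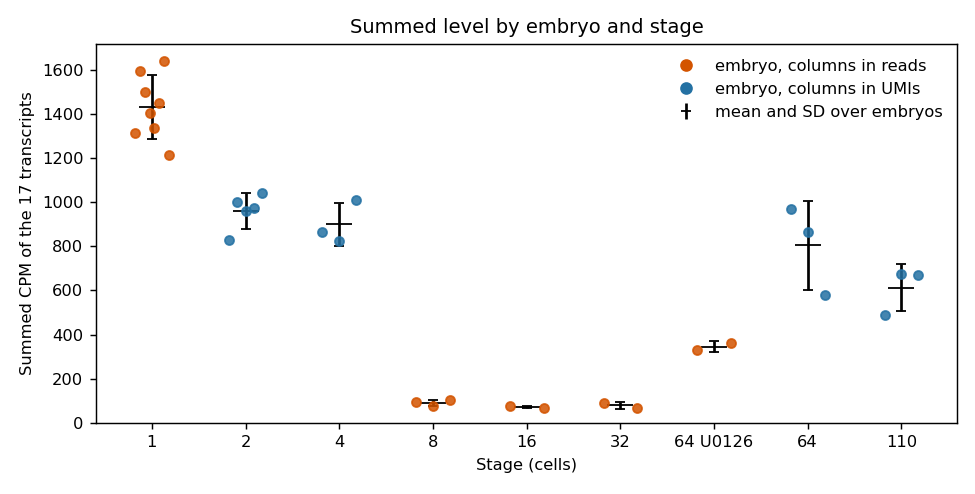
Summed CPM of the 17 transcripts (y axis) in each embryo (points) by stage in cells (x axis), with the mean and SD over embryos as black bars and colour for the kind of count. All embryos of the 8-, 16- and 32-cell stages lie at or under 104 CPM, the U0126-treated embryos lie at 328 and 362 CPM, and the lowest embryo of the other groups lies at 489 CPM.

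At the 16-cell stage, which the rule did not use, all 17 transcripts were at least 6-fold below the zygote level, where 0.469% of the 4263 genes were. At the 32-cell stage 16 of 17 were, with a background of 0.399%, and the exception was ENSCSAVG00000011749. That transcript had 39.4 and 27.2 CPM in 32-cell embryos, 20.3 and 17.9 CPM in 16-cell embryos and 111 CPM or more in zygotes. These counts use the same zygotes as the rule and carry no test. ENSCSAVG00000002885 had 8.74 and 6.08 CPM in 32-cell and 2.70 and 7.56 CPM in 16-cell embryos, and ENSCSAVG00000011645 had no read in the 32-cell embryos and 1 read in each 16-cell embryo.

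32-cell embryos were also tested against 16-cell embryos, both in reads. edgeR called 0 of 16 transcripts, where 0.637% of 6441 genes were called, and 0 had an unadjusted p under 0.05, where 2.86% of all did. DESeq2 also called 0, where it called 0.605% of all. A fit of the stages in reads only, which still held the zygotes, called 0 of 16, where 0.186% of 5914 genes were called. The lowest adjusted p was 1 by edgeR, with 2 embryos a stage. The median log2 fold change of the 16 was -0.19 as fitted and 0.20 with transcripts at 0 set to a floor of 3 counts over the group and those at or under it in both stages left out. It was 0.01 over all genes.

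In 64-cell embryos, in UMIs, few of the transcripts were as far below the zygote as at the 8-cell stage. The 6-fold line was met by 3 of 17, where 0.235% of the 4263 genes met it, and by 5 of 17 at the 110-cell stage, with a background of 0.469%. The zygote levels are again those that the rule used, so these counts carry no test. The 3 at the 64-cell stage were ENSCSAVG00000008275, ENSCSAVG00000005583 and ENSCSAVG00000011973. ENSCSAVG00000002885 had 247, 161 and 214 CPM in 110-cell embryos and 301, 280 and 332 CPM in 64-cell embryos, which overlaps the 2-cell range of 140 to 343 CPM. ENSCSAVG00000011546 had 2.43, 28.3 and 25.1 CPM in 110-cell embryos and 79.2, 211 and 3.37 CPM in 64-cell embryos, so embryos of 1 stage differed by more than 10-fold.

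Differences between embryos of 1 stage were seen in other transcripts too. ENSCSAVG00000011645 had 3.12, 39.5 and 41.6 CPM in 110-cell embryos 1 to 3 and 52.8, 47.4 and 0 CPM in 64-cell embryos 1 to 3, with the 0 allowing up to 1.26 CPM. A UMI of it was found in 47 of 62, 43 of 63 and 0 of 54 cells of the 64-cell embryos. ENSCSAVG00000003632 had 0.693, 23.5 and 2.32 CPM in 110-cell embryos and 32.9, 7.51 and 0.843 CPM in 64-cell embryos. For ENSCSAVG00000011468 the values were 2.08, 40.2 and 10.9 CPM in 110-cell embryos and 26.03, 1.58 and 0.843 CPM in 64-cell embryos. 110-cell embryo 1 was the lowest of its stage for 15 of 17 transcripts, of which ENSCSAVG00000008275 was at 0 in all 3 embryos, and 64-cell embryo 3 for 10 of 17. Across the 17, on the log2 scale, these 2 embryos correlated at 0.95, as did 64-cell embryo 1 and 110-cell embryo 2, and the other 7 of the 9 pairs of a 64-cell with a 110-cell embryo correlated at 0.58 to 0.90. Over all 4263 genes the first 2 pairs correlated at 0.98 and 0.97 and the other 7 at 0.88 to 0.96. How often an embryo was the lowest of its stage was not counted over all genes, so that order is not read as a trait of the set.

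64-cell embryos were tested against 4-cell embryos, both in UMIs and neither used by the rule. edgeR called 2 of 16 transcripts, 1 higher and 1 lower, where 9.84% of 6441 genes were called, 5.12% higher and 4.72% lower. With the stages in UMIs only, and so without the zygotes, it called 3 of 13, 2 higher and 1 lower, where 7.91% of 5598 genes were called. With so few transcripts nothing is read from either count. At an unadjusted p under 0.05 there were 7 of 16, where 24.0% of all genes tested had one, and DESeq2 also called 2, where it called 12.6% of all. ENSCSAVG00000006708 had 67.6, 28.1 and 17.3 CPM in 64-cell embryos and 2.60, 0 and 0 CPM in 4-cell embryos. All 64-cell embryos lay above all 4-cell embryos, and edgeR gave a log2 fold change of 5.24 with an SE of 1.34 and an adjusted p of 0.00931. The 4-cell level rests on 1 UMI, and the ratio of pooled levels was 41.8 with an exact 95% counting interval of 7.44 to 1655. The call was lost without 4-cell embryo 2 or 4-cell embryo 3.

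ENSCSAVG00000010500 fell to 67.2, 104 and 54.0 CPM in 64-cell embryos, against 320, 287 and 342 CPM in 4-cell embryos, and the groups did not overlap. Its log2 fold change was -2.06 with an SE of 0.30 and an adjusted p of 1.83e-05 by edgeR. The median log2 fold change was 0.65 over the 15 transcripts with more than 3 counts in either stage and 0.03 over all genes. Values with error bars for each transcript are in the plot of tested changes.

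110-cell embryos set against 64-cell embryos, both in UMIs, gave 0 called of 16 by edgeR, where 0.264% of genes were called, 0.0155% higher and 0.248% lower. With the stages in UMIs only it called 0 of 13, where 0.0357% of 5598 genes were called. At an unadjusted p under 0.05 there were 3 of 16, where 6.52% of all genes tested had one, and DESeq2 called 1, ENSCSAVG00000001791, where it called 0.932% of all. That transcript had 1.04, 1.45 and 2.32 CPM in 110-cell embryos and 5.78, 32.8 and 6.32 CPM in 64-cell embryos, without overlap. edgeR gave it a log2 fold change of -3.10 with an SE of 0.76 and an adjusted p of 0.0680, and the adjusted p was under 0.05 without 64-cell embryo 1 or without 64-cell embryo 3. The median log2 fold change was -0.11 over 15 transcripts and 0.00 over all genes.

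With U0126 the 64-cell embryos are in reads, as the 32-cell embryos are, and these groups were compared after their values had been seen. They differ in stage, in drug and in PCR cycles (17 with U0126 and 16 at the 32-cell stage), which cannot be told apart. Against the zygotes, also in reads, 8 of 17 transcripts were at least 6-fold lower with U0126, where 0.962% of the 4263 genes were. That count also uses the zygote levels of the rule and carries no test. The tests below are against the 32-cell embryos. edgeR called 7 of 16 transcripts, all 7 higher with U0126, where 11.2% of 6589 genes were called, 5.31% higher and 5.87% lower. The rule chose transcripts low at the 8-cell stage, and 16 of 17 were still at least 6-fold below the zygote at the 32-cell stage. A rise was therefore easier to call than a fall, and every fit held the zygotes. For these reasons nothing is read from the count of calls or from the median change below. At an unadjusted p under 0.05 there were 10 of 16, where 24.6% of all genes tested had one, and DESeq2 also called 7, where it called 17.1% of all. Without 32-cell embryo 2 edgeR called 4 of 17, where 4.24% of 6952 genes were called. The median log2 fold change was 2.38 over the 16, also with the 2 transcripts that had no read at the 32-cell stage at a floor of 3 counts, and 0.00 over all genes.

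ENSCSAVG00000011645 had 107 and 112 CPM in U0126-treated embryos and no read in the 32-cell embryos, with an adjusted p of 0.000885 by edgeR. Against a floor of 3 reads over the 32-cell group its ratio was 634. The lower bound is smaller, because 1 UMI had a median of 4.57 reads at the 32-cell stage. The same transcript had no count in 5 of 8 zygotes and in 64-cell embryo 3. With 2 embryos a group, a change of the group and a difference between single embryos cannot be told apart for it. ENSCSAVG00000003632 had 37.9 and 37.3 CPM with U0126 and 0.690 and 0 CPM in 32-cell embryos, a log2 fold change of 6.70 with an SE of 1.497 and an adjusted p of 0.00245 by edgeR. The call on ENSCSAVG00000003632 was lost without 32-cell embryo 2, at an adjusted p of 0.0799. The other 5 called transcripts had log2 fold changes of 1.78 to 5.34, and 3 of these calls were lost with an embryo left out. Without 32-cell embryo 2 the edgeR adjusted p was 0.219 for ENSCSAVG00000009472 and 0.204 for ENSCSAVG00000011998. It was 0.156 for ENSCSAVG00000009472 without U0126-treated embryo 2, and 0.0611 for ENSCSAVG00000011115 without 32-cell embryo 1. ENSCSAVG00000002885, also called, had 58.5 and 74.6 CPM in U0126-treated embryos and 8.74 and 6.08 CPM in 32-cell embryos.

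**Figure D4:**
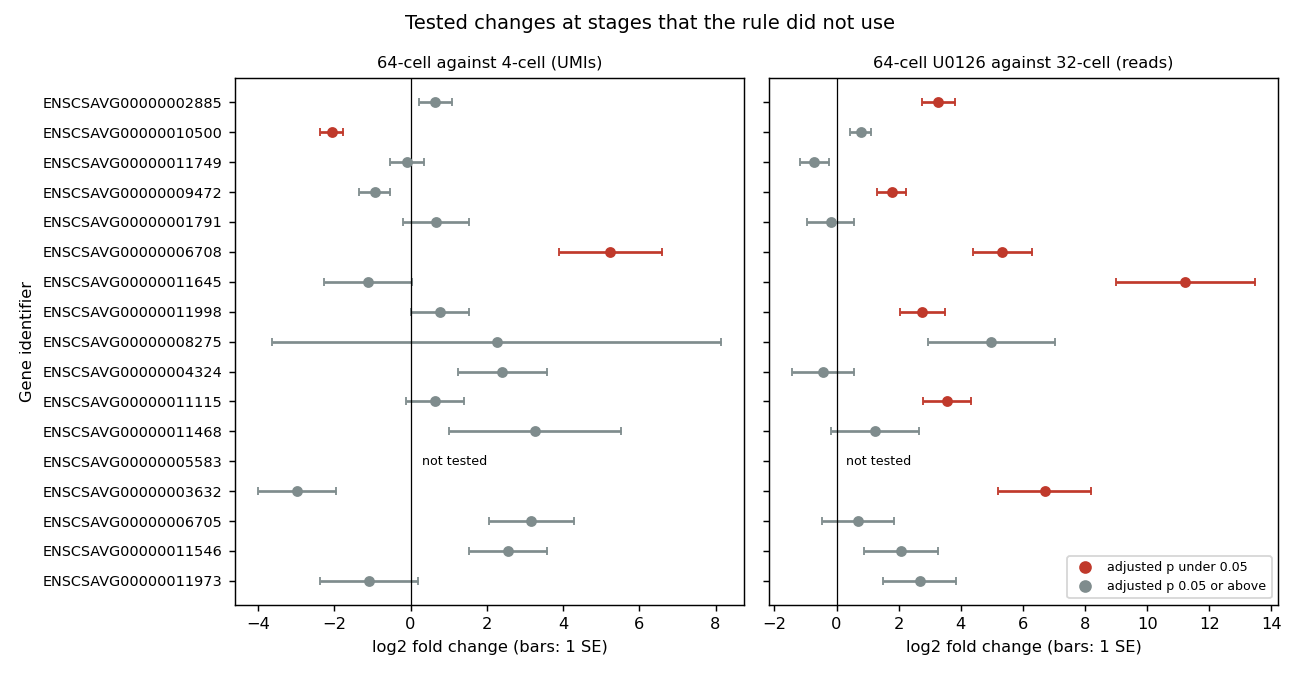
Log2 fold change (x axis, bars 1 SE) of each transcript (y axis) for 64-cell against 4-cell embryos (left, UMIs) and for U0126-treated 64-cell against 32-cell embryos (right, reads), red where the edgeR adjusted p was under 0.05. On the left 1 transcript is called higher and 1 lower, on the right 7 are called higher. The points of ENSCSAVG00000008275 in both panels and of ENSCSAVG00000011645 on the right rest on a group without a count, so their place depends on the fit.

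U0126-treated and untreated 64-cell embryos are given side by side without a test, since the first are in reads and the second in UMIs. ENSCSAVG00000011645 had 107 and 112 CPM with U0126, against 52.8, 47.4 and 0 CPM without it. ENSCSAVG00000006705 had 0.340 and 1.95 CPM with U0126, against 41.2, 62.5 and 23.6 CPM without it. ENSCSAVG00000004324 had 1.78 and 2.41 CPM with U0126, against 59.3, 15.8 and 14.3 CPM without it. By pooled CPM most of the set stood below the untreated level, and the summed level averaged 345 CPM with U0126, against 805 CPM without it. Those above it were ENSCSAVG00000011645, ENSCSAVG00000003632, ENSCSAVG00000008275 and ENSCSAVG00000011973. Of these, ENSCSAVG00000008275 and ENSCSAVG00000011973 had only 1.38 and 3.99 CPM with U0126. Over the 4263 genes the median ratio to the zygote was 0.990 in U0126-treated and 1.15 in untreated 64-cell embryos. How many of all genes stood below the untreated level was not counted, so the lower level is not read as a trait of the set.

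Across the authors' cell classes no transcript of the set was called at any of 6 stages. The test asked for any difference between classes with the embryo as a blocking term, and only transcripts that passed the filter on low counts in the class sums entered it. edgeR called 0 of 5 in 4-cell embryos, where 0.382% of genes were called, 0 of 4 in 8-cell (1.1%), 0 of 3 in 16-cell (0.794%), 0 of 4 in 32-cell (1.23%), 0 of 10 in 64-cell (4.55%) and 0 of 8 in 110-cell embryos (7.04%). An unadjusted p under 0.05 was found in 1 of these 34 tests, for ENSCSAVG00000010500 at the 4-cell stage, where 5.27% of all genes tested had one. At the other 5 stages 5.91 to 12.5% of genes had one. DESeq2 called 0 at each stage, where it called 0.204 to 8.86% of all. Without the filter on low counts 15, 13, 16, 14, 17 and 16 of the transcripts were tested at the 4-, 8-, 16-, 32-, 64- and 110-cell stages, and edgeR called 0 of them. Over all genes it called 0.177 to 4.78% in these fits.

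ENSCSAVG00000010500 averaged 276 ± 53.7 CPM in the A class of the 4-cell stage and 349 ± 33.8 CPM in the B class (SD, n = 3 each), with an edgeR adjusted p of 0.879 over all genes. In 64-cell embryos ENSCSAVG00000002885 had a count in all 14 classes, with class means from 242 ± 59.9 CPM in A7.4/8 to 491 ± 280 CPM in A7.3/7 (SD, n = 3 each). In 110-cell embryos it was counted in all 16 classes, with means from 124 ± 51.8 CPM in B7.5 to 273 ± 91.6 CPM in the posterior epidermis (SD, n = 3 each). The edgeR adjusted p for a difference between classes was 0.977 at 64 cells and 0.607 at 110 cells. ENSCSAVG00000011645 was counted in all 14 classes of the 64-cell and all 16 of the 110-cell stage, although 64-cell embryo 3 had none of it, and in all 8 classes of the U0126-treated embryos, at 69.2 ± 1.42 CPM in B7.4/5/8 to 138 ± 30.2 CPM in B7.3/7 (SD, n = 2 each). The plot of class means gives the ranges over embryos.

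**Figure D5:**
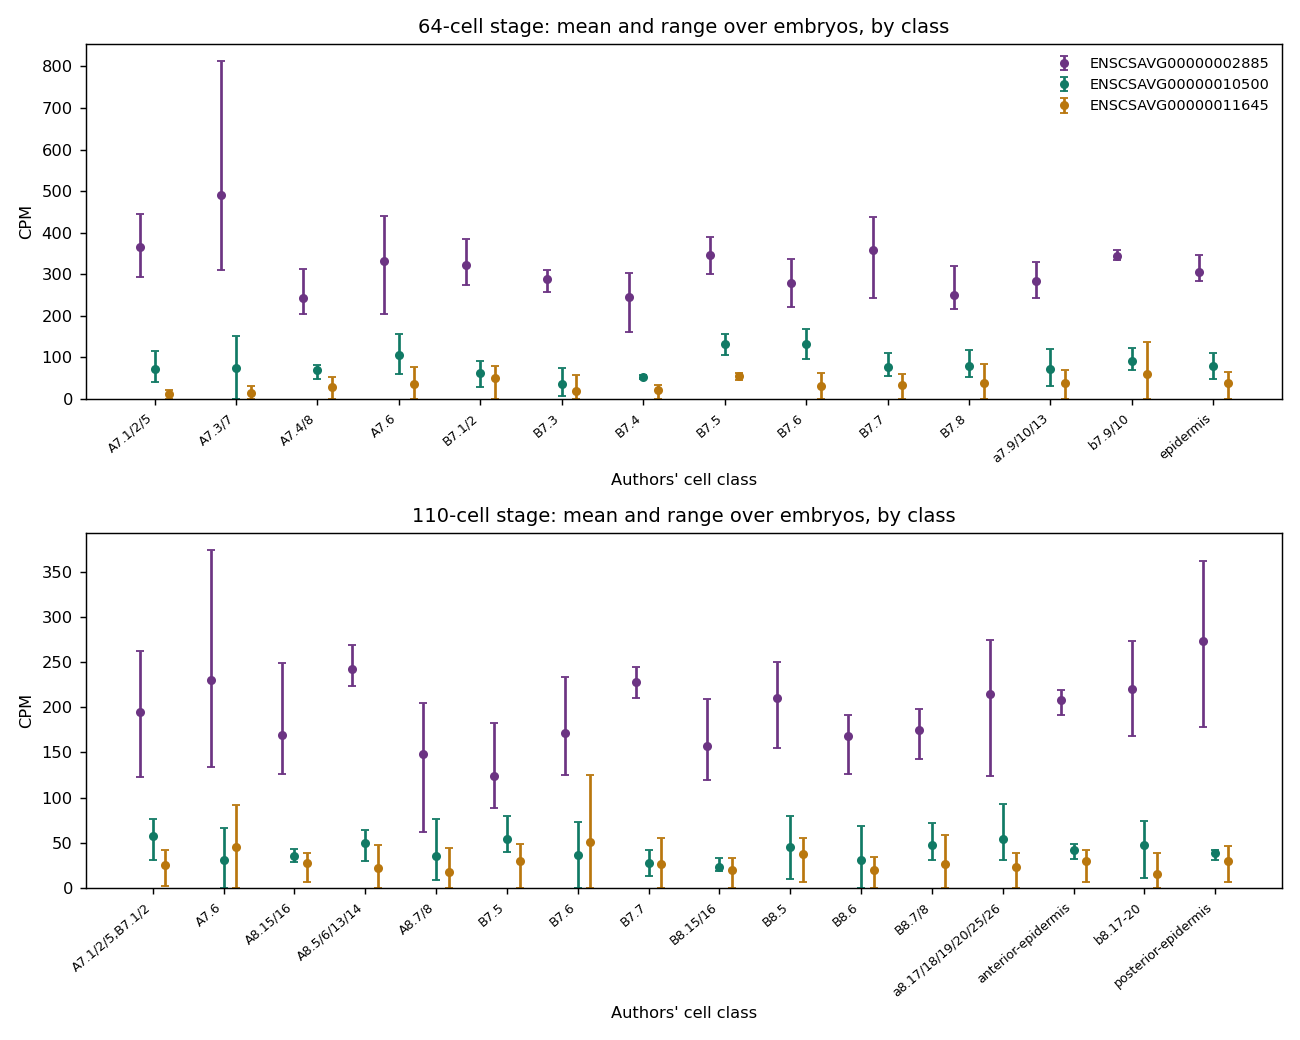
Mean CPM (points, y axis) and lowest to highest embryo (bars) of 3 transcripts in each class (x axis) of the 64-cell (top) and 110-cell stage (bottom). ENSCSAVG00000002885 was counted in every class of both stages, and the bars of ENSCSAVG00000011645 reach 0 in most 64-cell classes, where 64-cell embryo 3 had no count.

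The rarest later were ENSCSAVG00000008275 and ENSCSAVG00000005583. ENSCSAVG00000008275 was at 0 in 21 of the 31 embryos, and outside the zygotes its highest level was 2.23 CPM, in U0126-treated embryo 2. ENSCSAVG00000005583 was at 0 in 17 of the 31, and outside zygote 8 its highest levels were 9.53 CPM in zygote 2 and 5.33 CPM in 110-cell embryo 2. By contrast, 4 transcripts had a count in every embryo: ENSCSAVG00000002885, ENSCSAVG00000010500, ENSCSAVG00000011749 and ENSCSAVG00000009472. Only ENSCSAVG00000006705 and ENSCSAVG00000006708 lie within 10 identifier numbers of each other, at a distance of 3, and in zygote 8 they stood at 0 and 10.1 CPM.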

How the data were processed

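Whole-number counts per gene and cell were deposited by the authors with a table of each cell's library, embryo, stage and class. The deposited matrix mixes kinds of count: its column totals equal the table's UMI numbers in 518 cells and its read numbers in 255 cells. CASAVA 1.8, DESeq2 and Seurat are named per the submitters' processing notes. For the aligner, the genome build and the annotation, nothing is given in the sources used here. GEO lists 56 entries for 41 libraries, and a repeat entry was counted with its library.

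Counts were summed per embryo, or per embryo and class without cells labelled low quality, and expressed as CPM of the sum. Stages in the same kind of count were compared with edgeR 4.0.16 in R 4.3.3 (filterByExpr, TMM scaling, a quasi-likelihood fit of all 29 untreated embryos, or of all 31 for U0126, and Benjamini-Hochberg adjustment at 0.05). Classes were compared by an F test with the embryo as a block, which pairs classes of the same embryo. The fits were tested on simulated data. Alternatives were RLE scaling, DESeq2 1.42.0, no filter, only groups in the same kind of count, no low quality cells, no block, and leaving out each embryo. Python 3.11.15, numpy 2.4.6, pandas 2.3.3, scipy 1.17.1 and matplotlib 3.10.9 were used for the rest.

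The transcripts, lists and tests were chosen with earlier results of these data known. Named genes were the 4 highest at the 1-cell stage, the extremes of the 2-cell ratio and of the variation between zygotes, the neighbours of each threshold, up to 2 called transcripts a direction in each comparison, and the 2 highest from the 16-cell stage on. Other transcripts were named after their values were seen. Marker lists of maternal, sperm, decay and meiotic genes were drawn up but could not be used, because the files pair no identifier with a gene name. For the same reason the authors' classes were not checked against markers. Nothing says which embryos share parents, so p-values measure the spread between the embryos of each fit, zygotes included where the fit held them.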

Additional observations from a re-analysis of the deposited data

Results flagged for a closer look

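Levels in zygotes and in 2-cell embryos were searched for a single embryo far from the rest of its group, by the gap to the nearest embryo over the whole range. Zygotes gave 6 such values, 5 of them in zygote 8. The rule chose the transcripts on these zygote levels, and ENSCSAVG00000005583 and ENSCSAVG00000011973 met it only with zygote 8 included, so the 6 values are a description and their number is set against no rate. Zygote 8 had 0 CPM of ENSCSAVG00000001791, where the other zygotes had at least 70.7 CPM, and 10.1 CPM of ENSCSAVG00000002885, where the others had at least 267 CPM. It had 326 CPM of ENSCSAVG00000005583, where the next zygote had 9.53 CPM. For ENSCSAVG00000011973 it stood at 148 CPM and for ENSCSAVG00000011998 at 161 CPM, where the others reached 28.5 and 59.1 CPM. Zygote 3 had 114 CPM of ENSCSAVG00000003632, where the others reached 42.7 CPM.

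The rule did not use the 2-cell embryos, where 2 of 16 sets of values with a count held such an embryo. The sets were transcripts and their summed level. The cut-off marks about 1 in 20 by chance for normally distributed values only. Many of these levels rest on small UMI counts, so that rate cannot be applied and the 2 values are a description. 2-cell embryo 1 had 65.4 CPM of ENSCSAVG00000006705, and the other 2-cell embryos reached 15.6 CPM. 2-cell embryo 2 had 39.03 CPM of ENSCSAVG00000011998, and the others reached 10.9 CPM. These 2-cell levels rest on 6 and 5 UMIs.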

How the results depend on the processing

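The rule returned 17 transcripts, and it returned 5 with a pseudocount of 10 CPM and 6 with a minimum of 60 CPM. Leaving out each zygote or 8-cell embryo in turn gave 15 to 20. For 64-cell against 4-cell embryos edgeR called 2 of 16. Without the filter on low counts it called 5 of 17, where 5.92% of 11628 genes were called. With the stages in UMIs only it called 3 of 13, where 7.91% of 5598 genes were called. With an embryo left out it called 1 to 3 of 16, where 5.57 to 10.7% of genes were called. For 110-cell against 64-cell embryos edgeR called 0 of 16. DESeq2 called 1 of 16, where 0.932% of genes were called. The fit without the filter called 2 of 17, where 0.542% of 11628 genes were called. Leaving out an embryo gave 0 to 2 of 16, where 0.0479 to 1.59% of genes were called. For U0126-treated 64-cell against 32-cell embryos, an alternative added after seeing the data, leaving out an embryo gave 4 to 7 of 17 in place of 7 of 16. In those fits 4.24 to 6.30% of all genes were called. Of the 21 transcript results with an unadjusted p under 0.05 in these comparisons, none changed direction under an alternative. Over all genes the counts moved more: 11 genes were called for 4-cell against 2-cell embryos, and 2 to 52 under the alternatives, and 17 for 110-cell against 64-cell embryos, and 2 to 100. For 64-cell against 4-cell embryos the 634 genes became 362 to 811, for 32-cell against 16-cell embryos the 41 became 11 to 62, and with U0126 the 737 became 295 to 1163. In the class tests, leaving out the replicate block changed no call on the transcripts (0 called at each stage with and without it), while at the 8-cell stage the genes called went to 34 without the block, against 70 with it. No paired analysis was possible for the stages because their embryos share no number that the labels tie to a parent or batch. Classes of 16- and 32-cell embryos could not be fitted with an embryo left out. Depth limits the 2-cell values most, where 1 UMI is worth up to 10.9 CPM.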
